A study of Mus musculus with 9 samples.

Results

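The clustered protocadherins are cell-adhesion genes laid out in 3 neighbouring subclusters, Pcdha, Pcdhb and Pcdhg, on mouse chromosome 18. Members were the genes of the GRCm38 annotation on that chromosome whose symbols start with Pcdha, Pcdhb or Pcdhg, which gave 58 of the 21632 genes examined. There were 14 Pcdha genes, 22 Pcdhb genes and 22 Pcdhg genes, of which Pcdhgb8 is annotated as a transcribed pseudogene and the other 21 as protein-coding. The Pcdha genes run from Pcdha1 to Pcdhac2 (chr18:36930285-37188897), the Pcdhb genes from Pcdhb1 to Pcdhb22 (chr18:37264998-37521419) and the Pcdhg genes from Pcdhga1 to Pcdhgc5 (chr18:37661775-37841873).

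In Pcdha and Pcdhg each variable first exon has its own promoter and is spliced to exons that all genes of the subcluster share at its far end, whereas each Pcdhb gene is a single-exon gene. The proteins are known mainly from neurons, where each cell uses a few promoters of the array and the resulting combinations serve self-recognition between branches of the same cell. Promoter choice there depends on the CTCF protein and on cohesin, a ring complex that folds DNA into loops and brings a promoter next to distant enhancers. Enhancers of the Pcdha genes are known, and a group of regulatory sites is known past the end of Pcdhg. Pcdhac1, Pcdhac2, Pcdhgc3, Pcdhgc4 and Pcdhgc5 are the C-type members, which sit nearest the shared exons and are used more widely across neurons than the alternate members.

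The data were HiChIP libraries, in which chromatin conformation capture is combined with immunoprecipitation so that each read pair reports a contact near a chosen protein or histone mark. The cells were thymocytes sorted for CD4 and CD8 together, a stage of developing T cells called double-positive. They came from C57BL/6J mice (BL6 below), from NOD/ShiLtJ mice (NOD below), an autoimmune diabetes strain, and from an F1 of NOD/ShiLtJ and C57BL/6 whose substrain is not named. Antibodies were against Smc1, a cohesin subunit, with 2 libraries from BL6, 2 from NOD and 1 from the F1, or against H3K27ac, a mark of active promoters and enhancers, with 2 libraries from BL6 and 2 from NOD. No treatment, genotype change, age or sex is given for any group. The labels number the 2 Smc1 libraries of a strain as technical repeats of 1 biological replicate, so p-values for Smc1 measure a spread that may be technical. The names of the 2 NOD Smc1 tables carry other repeat numbers than the sample titles, and libraries are numbered here by title. The 4 H3K27ac samples have titles that name Smc1, and their antibody field, which was followed here, names H3K27ac. NOD reads were placed on a NOD genome and shifted to the reference, per the names of the deposited tables, so that strain and mapping genome cannot be told apart.

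The 8 BL6 and NOD tables held 380986 to 2620662 used read pairs. Chromosome 18 took 2.72 to 3.71% of read pairs in the 4 Smc1 libraries, 3.35% and 3.13% in the H3K27ac libraries numbered 2 of BL6 and NOD, and only 1.34% and 0.802% in those numbered 1. These 2 libraries therefore stand apart on the chromosome that carries the members, and comparisons that rest on H3K27ac are given with and without them. An interaction is in a table only if 2 or more read pairs carry it and its q-value does not exceed 0.05, so a library with none listed was under that limit and was not measured at 0. Genes that define the double-positive stage were listed in these cells: Cd4 carried 16 to 114 read pairs in the Smc1 libraries and 51 to 158 in the H3K27ac libraries, and Bcl11b 326 to 1105 and 145 to 1235. All 12 markers of that stage were listed in 7 of the 8 libraries and 10 in the second NOD Smc1 library. Markers of other cells were listed too, all 8 neuron markers and 6 of 6 thymic epithelium markers in each of the 4 Smc1 libraries, so listed contacts were not limited to genes of this stage.

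For each subcluster, read pairs were summed over interactions whose anchors lay at least 10 kb apart and touched a member or the 5 kb around it, each interaction counting once. Pcdhg carried the most contacts. With Smc1 it held 420 and 564 read pairs in the BL6 libraries (221 and 215 CPM, where CPM is read pairs per 1000000 used read pairs of the library), 315 and 180 in the NOD libraries (189 and 121 CPM) and 121 in the F1 library (158 CPM). All 5 Smc1 libraries were thus above 100 CPM, and the second NOD library was the lowest. With H3K27ac, the BL6 libraries gave Pcdhg 24 and 246 read pairs (54.4 and 204 CPM) and the NOD libraries 4 and 47 (10.5 and 94.4 CPM), so that the libraries numbered 1 were far below those numbered 2 in both strains.

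Pcdhb and Pcdha carried fewer. With Smc1, Pcdhb held 107 and 152 read pairs in BL6 (56.3 and 58.0 CPM), 119 and 82 in NOD (71.5 and 55.2 CPM) and 24 in the F1 (31.4 CPM). Pcdha held 86 and 161 in BL6 (45.3 and 61.4 CPM), 89 and 57 in NOD (53.5 and 38.4 CPM) and 38 in the F1 (49.7 CPM). BL6 and NOD overlapped in both subclusters. With H3K27ac, Pcdha had no listed interaction in either library numbered 1, 23 read pairs in BL6 library 2 (19.1 CPM) and 6 in NOD library 2 (12.1 CPM). Pcdhb had 2 and 32 in BL6 (4.54 and 26.6 CPM), none listed in NOD library 1 and 4 in NOD library 2 (8.04 CPM).

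**Figure D1:**
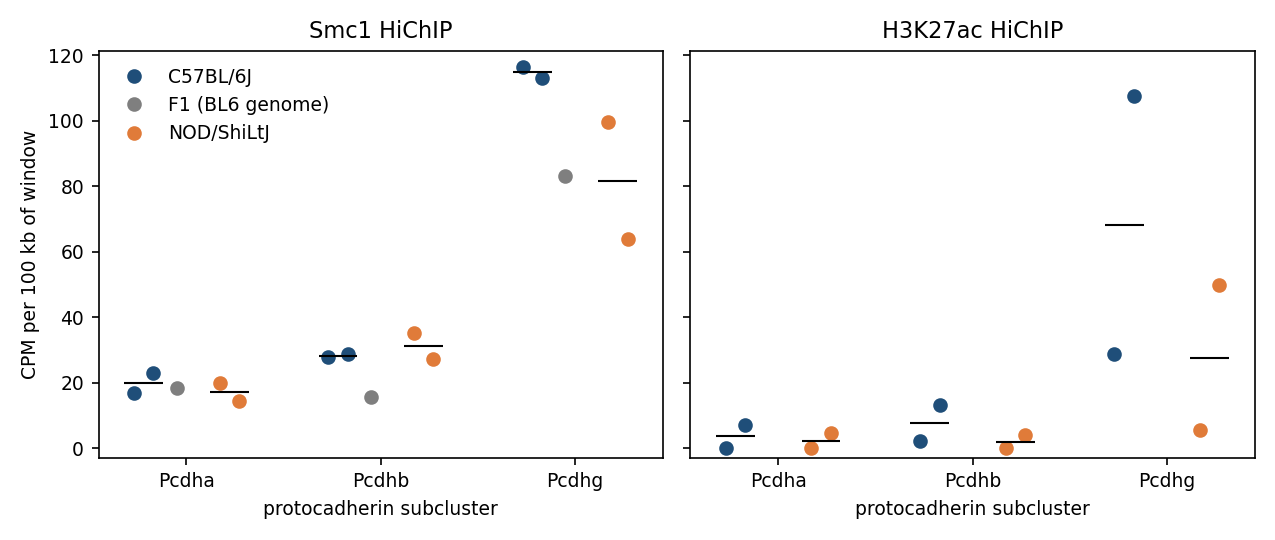
CPM per 100 kb of window (vertical axis) for the 3 subclusters, with Smc1 on the left and H3K27ac on the right; each point is 1 library and each short line the mean of 2. Pcdhg lies above Pcdha and Pcdhb in every library shown, at 63.8 to 116 for Smc1 in BL6 and NOD.

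The windows of the subclusters differ in length, at 269 kb for Pcdha, 203 kb for Pcdhb and 190 kb for Pcdhg, and were compared per 100 kb. Over the 4 Smc1 libraries of BL6 and NOD the density was 98.2 ± 24.1 CPM per 100 kb in Pcdhg, 29.7 ± 3.75 in Pcdhb and 18.5 ± 3.72 in Pcdha (SD, n = 4). Over the 4 H3K27ac libraries it was 47.8 ± 43.7 in Pcdhg, 4.83 ± 5.76 in Pcdhb and 2.90 ± 3.52 in Pcdha (SD, n = 4). Pcdhg exceeded both Pcdha and Pcdhb in 8 of 8 libraries, and Pcdhb exceeded Pcdha in 6 of 8, with 1 library in which neither was listed. Because the 2 Smc1 libraries of a strain are technical repeats, their mean was taken as 1 unit. The 4 H3K27ac libraries were counted singly, and their independence was not tested, which left 6 units. Over these the excess of Pcdhg was 56.5 over Pcdha and 51.5 over Pcdhb, in 6 of 6 units each (exact sign-flip permutation test, two-sided, p = 0.03125, the smallest that 6 units allow; 0.0469 adjusted over 3 pairs). The excess of Pcdhb over Pcdha was 5.04, in 4 of 6 units, and did not pass (exact permutation p = 0.125). Counting each of the 8 libraries on its own treats technical repeats as independent. It gave adjusted p = 0.0117 for both excesses of Pcdhg and 0.03125 for that of Pcdhb over Pcdha (exact permutation test). Without the 2 H3K27ac libraries numbered 1 the excess of Pcdhg was 76.3 over Pcdha and 69.3 over Pcdhb in 4 of 4 units, where no exact p under 0.125 is possible. All 4 Smc1 libraries of BL6 and NOD had Pcdhg above Pcdhb above Pcdha, whereas the F1 had Pcdha at 18.5 and Pcdhb at 15.5 CPM per 100 kb, below Pcdhg at 83.2.

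Against the rest of the chromosome Pcdhg again lay highest of the 3. In bins of 25 kb, the median bin of chromosome 18 carried 12.1 to 16.8 CPM in the 4 Smc1 libraries, the median Pcdhg bin 17.9 to 30.0, the median Pcdhb bin 6.01 to 6.84 and the median Pcdha bin 2.69 to 6.61. Pcdhg was thus above the chromosome's median in each Smc1 library of BL6 and NOD, and Pcdha and Pcdhb below it. Between these 2 the order changed with the library, the median Pcdha bin being the higher in NOD library 1 (6.61 against 6.01) and in the F1 (5.23 against 2.61). In H3K27ac BL6 library 2 the medians were 9.14 for the chromosome, 20.4 for Pcdhg and 1.66 for both Pcdha and Pcdhb. In NOD library 2 they were 4.02 for the chromosome and 9.04 for Pcdhg, while the median Pcdha and Pcdhb bins had none listed.

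**Figure D2:**
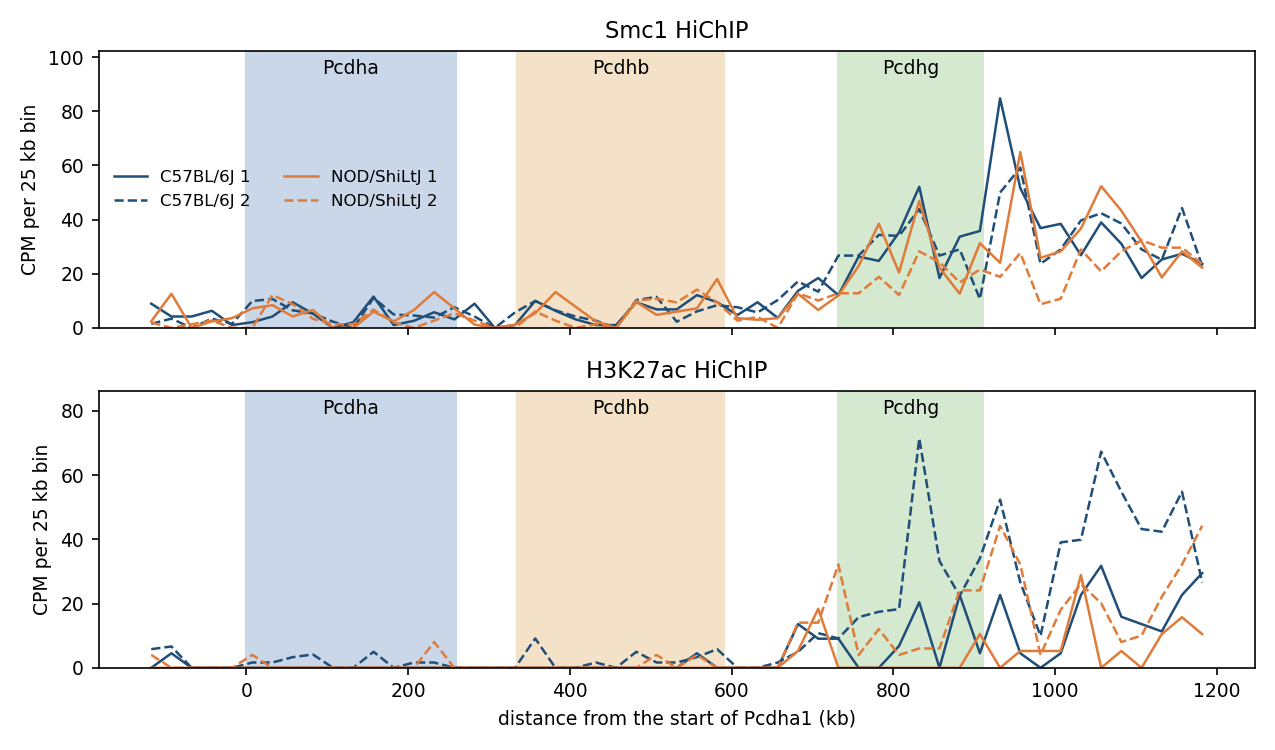
CPM in 25 kb bins (vertical axis) against distance from the start of Pcdha1 in kb, for the Smc1 libraries (top) and the H3K27ac libraries (bottom) of C57BL/6J and NOD/ShiLtJ; solid lines are libraries 1 and dashed lines libraries 2, and shading marks the subclusters. With Smc1 the signal is low over Pcdha and Pcdhb, rises before the start of Pcdhg and is mostly higher from there to past its end. The bin from chr18:37600001, before Pcdhg, holds 12.6 to 17.2 CPM in the Smc1 libraries. H3K27ac NOD library 1 has none listed in most Pcdhg bins.

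Anchors, the segments between which contacts were listed, were most numerous in Pcdhg. In the Smc1 libraries Pcdhg had 26 to 46 anchors (13.7 to 24.2 per 100 kb), Pcdhb 22 to 31 (10.9 to 15.3 per 100 kb) and Pcdha 19 to 36 (7.07 to 13.4 per 100 kb). Pcdha had more anchors than Pcdhb in BL6 library 2 (36 against 31) and fewer in the other 3, and chromosome 18 as a whole had 13.7 to 19.8 per 100 kb. Median reads per anchor lay at 328.5 to 588 in Pcdhg, 218.5 to 436 in Pcdhb and 234 to 469.5 in Pcdha, with 255 to 480 on the chromosome. With overlapping anchors of all tables merged, Pcdhg had 61, of which 32 were listed with both antibodies and 24 with Smc1 alone. Pcdha had 53, 12 with both and 41 with Smc1 alone, and Pcdhb had 56, 6 with both and 46 with Smc1 alone. In all 4 Smc1 libraries of BL6 and NOD, 19 Pcdhg anchors were listed, against 4 in Pcdha and 5 in Pcdhb.

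Single interactions hardly recurred. Of 992 pairs of merged anchors that involve a member, 974 (98.2%) were listed in 1 library, 14 in 2 and 4 in 3, and none of the 205 Pcdha pairs was listed in more than 1. In the 4 Smc1 libraries, interactions of only 2 read pairs made up 79.5 to 87.5% of those of Pcdha, 66.1 to 83.3% of those of Pcdhb and 55.1 to 66.7% of those of Pcdhg. Of the 195 member interactions in Smc1 BL6 library 1, 3 (1.54%) were found again in library 2, where the share over chromosome 18 was 1.39%. In NOD none of the 195 in library 1 was found in library 2, against 0.720% over the chromosome. Recurrence was thus low over the whole chromosome at this depth, and the values below are sums over a subcluster, a gene start or an anchor, with single pairs given only where at least 2 libraries list them.

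The C-type and alternate members were compared at their own starts, by read pairs of interactions with an anchor within 2 kb of the lower-coordinate end of the gene, a window of equal length for every gene. The annotation used carries no strand, and the members are known to be transcribed toward higher coordinates, so this end holds the variable exon's promoter. Averaged over the 4 Smc1 libraries of BL6 and NOD, the median member had 6.38 CPM in Pcdhg (0.601 to 15.5), 1.97 in Pcdhb (0 to 3.43) and 1.64 in Pcdha (0.454 to 5.62), beside 3.99 over all genes. Contacts at the start were listed in all 4 of these libraries for 14 of 22 Pcdhg members, 6 of 22 Pcdhb members and 2 of 14 Pcdha members, beside 9572 of 21632 genes. With H3K27ac, 19 Pcdhg members, 7 Pcdhb members and 8 Pcdha members were listed in at least 1 library and none in all 4. Adjacent starts can share an anchor, so neighbouring values are not independent. The values over all genes were taken at the lower-coordinate end as well, which is the start only of genes transcribed toward higher coordinates. They also cover chromosome X, where Gata1, Stag2, Smc1a, Pcdh11x and Pcdh19 had no read pairs listed in any library.

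Among Pcdha members, Pcdha6, Pcdha9, Pcdha12 and Pcdhac1 were highest on the Smc1 average. Pcdha6 had 3.16 and 7.25 CPM in the BL6 Smc1 libraries and 6.01 and 6.06 in the NOD ones, and no listed contact with H3K27ac. Pcdha9 had 4.21 and 3.05 in BL6 and 3.01 and 2.69 in NOD. These 2 alternate genes were the only Pcdha members listed in all 4 Smc1 libraries. Pcdha12 had 2.11 and 3.82 in BL6 and 4.21 in the first NOD library, with none listed in the second. The C-type Pcdhac1 had 7.25 in the second BL6 library and 1.35 in the second NOD library and none listed in the others, so its place among the highest rests on 1 library. Pcdhac2, the last gene, had 1.05 in BL6 library 1 and 3.01 in NOD library 1 only, and Pcdha1, the first, 1.53 in BL6 library 2 and 2.40 in NOD library 1 only. With H3K27ac, Pcdha9, Pcdha12, Pcdhac1 and Pcdhac2 were each listed in BL6 library 2 alone, with 2 or 3 read pairs.

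Among Pcdhb members, Pcdhb13, Pcdhb22, Pcdhb21 and Pcdhb10 were highest with Smc1. Pcdhb13 had 2.11 and 3.82 CPM in BL6 and 2.40 and 5.39 in NOD. Pcdhb21 had 1.05 and 2.67 in BL6 and 4.81 and 4.04 in NOD. Both its NOD libraries thus lay above the BL6 ones, with no test at single gene starts and no count of how many starts separate so. Pcdhb22, the last gene, had 4.74 and none listed in BL6 and 6.61 and 2.02 in NOD, and Pcdhb10 none listed and 3.05 in BL6 and 7.21 and 2.02 in NOD. Strain groups overlapped for Pcdhb13, Pcdhb22 and Pcdhb10. Pcdhb1, the first gene, was listed in BL6 only (1.05 and 3.05), and Pcdhb7, singled out after its values were seen, was the only member of the 58 with no listed Smc1 contact in BL6 or NOD. With H3K27ac, Pcdhb16 was also singled out from its values: its BL6 libraries gave 2 and 4 read pairs and NOD library 2 gave 2, which is 3 of 4 libraries.

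Among Pcdhg members, Pcdhga11, Pcdhga12, Pcdhga6 and Pcdhgb7 were highest with Smc1. Pcdhga11 had 14.7 and 21.0 CPM in BL6 and 16.8 and 9.43 in NOD, and with H3K27ac it was listed in BL6 library 2 alone, at 17.4. Pcdhga12 had 27.4 and 11.4 in BL6 and 10.8 and 5.39 in NOD, and with H3K27ac 15.9 and 33.2 in BL6 and none listed in NOD. For Pcdhga12 both BL6 libraries were thus above both NOD libraries with Smc1, whereas the Pcdhga11 groups overlapped. With H3K27ac only BL6 was listed for Pcdhga12. No test was made at single gene starts, and the share of all starts that separate by strain was not counted. Pcdhga6 had 6.32 and 11.8 in BL6 and 24.0 and none listed in NOD, so its rank rests on the first NOD library. Pcdhgb7 had 18.4 and 5.72 in BL6 and 16.8 and none listed in NOD. Pcdhga1, the first gene, was lower, at 2.63 and 6.87 in BL6 and 1.20 and 5.39 in NOD.

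The C-type members of Pcdhg were listed with both antibodies. Pcdhgc3 had 14.7 and 8.01 CPM in BL6 and 5.41 and 4.04 in NOD with Smc1, and 9.07 and 4.15 in BL6 and 12.1 in NOD library 2 with H3K27ac. Pcdhgc5, the last gene, had 12.6 and 4.96 in BL6 and 6.01 and 8.76 in NOD with Smc1, and 13.6 and 7.48 in BL6 with H3K27ac. Pcdhgc4 had 16.8 and 3.82 in BL6 and 1.20 and none listed in NOD with Smc1, and 4.15 in BL6 library 2 and 12.1 in NOD library 2 with H3K27ac. BL6 lay above NOD with Smc1 for Pcdhgc3 and Pcdhgc4, with no test, and the strains overlapped for Pcdhgc5. The share of all starts that separate by strain was not counted, so these orders are only a description.

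**Figure D3:**
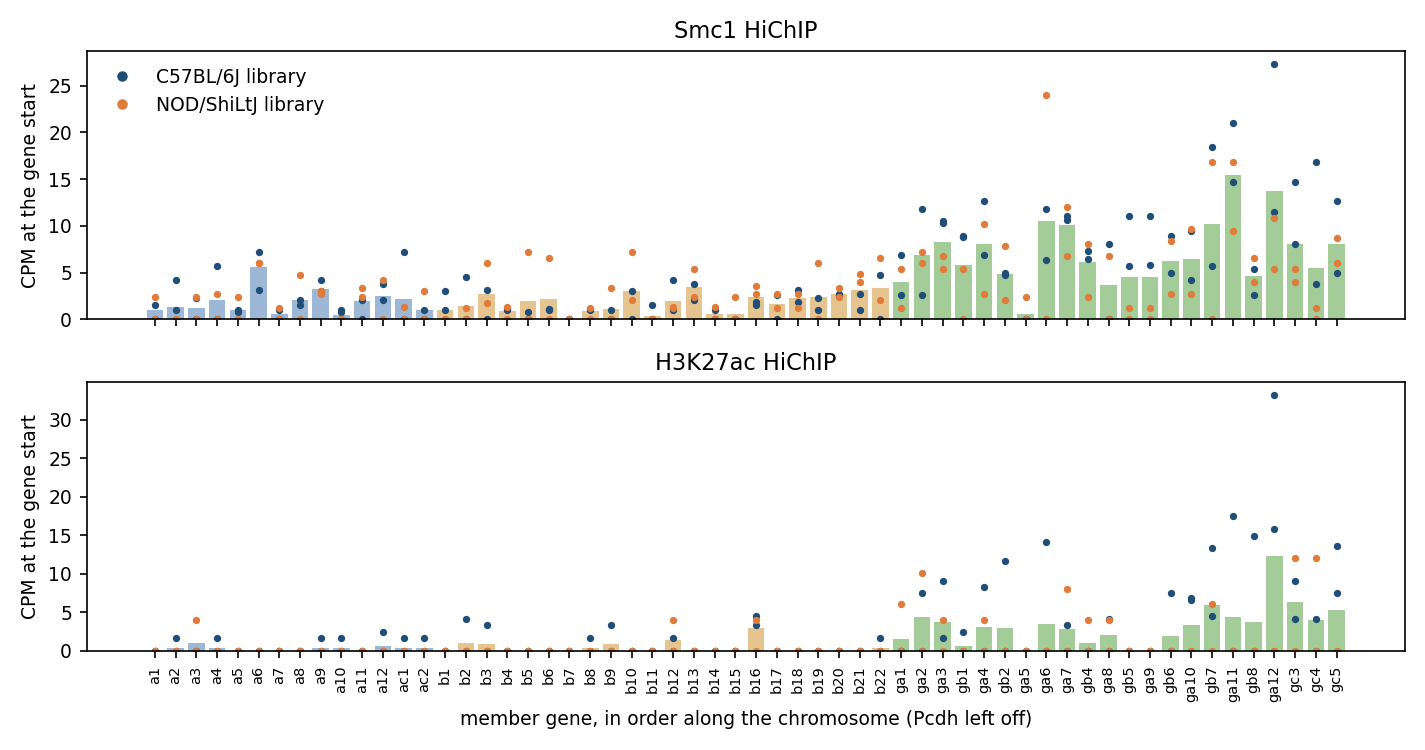
CPM at each member's own start (vertical axes) in order along the chromosome, with Smc1 above and H3K27ac below; bars are means of the 4 BL6 and NOD libraries, coloured by subcluster, and points are the libraries, dark blue for C57BL/6J and orange for NOD/ShiLtJ. Pcdhga11 (mean 15.5) and Pcdhga12 (mean 13.8) are the highest with Smc1.

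Partners outside a subcluster lay mostly past its last gene. Over the 4 Smc1 libraries of BL6 and NOD, 280 of 345 such Pcdha read pairs (81.2%), 295 of 405 Pcdhb read pairs (72.8%) and 1061 of 1352 Pcdhg read pairs (78.5%) led past the subcluster's own last gene and the rest before its first. Pcdhb has 6 separate windows, and any partners in the gaps between them are included in its 295. They fall among the 30 read pairs counted in the first 100 kb past Pcdhb22. Interactions reach at most 2 Mb in either direction. The zones below are counted from the ends of the whole array, so they lie at different distances from each subcluster. Over the 4 Smc1 libraries of BL6 and NOD, 42.3% of the 1479 Pcdhg read pairs led to anchors more than 100 kb past the Pcdhg window and 29.4% to anchors within 100 kb of it, whereas 8.59% stayed inside Pcdhg, 3.65% led to Pcdha and 3.99% to Pcdhb. Of the 460 Pcdhb read pairs, 38.5% led more than 100 kb past Pcdhg, 5.43% to the first 100 kb, 12.8% to Pcdhg, 12.0% to Pcdha and 12.0% stayed inside Pcdhb. Of the 393 Pcdha read pairs, 34.1% led more than 100 kb past Pcdhg, 16.5% to anchors before Pcdha1, 14.0% to Pcdhb, 13.7% to Pcdhg and 12.2% stayed inside Pcdha. The H3K27ac read pairs of Pcdhg, 321 in 4 libraries, led more than 100 kb past the window in 64.2% and to the first 100 kb in 12.8%, and none led to Pcdhb. In the libraries numbered 2 alone these shares were 64.2% and 12.6% of 293 read pairs.

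**Figure D4:**
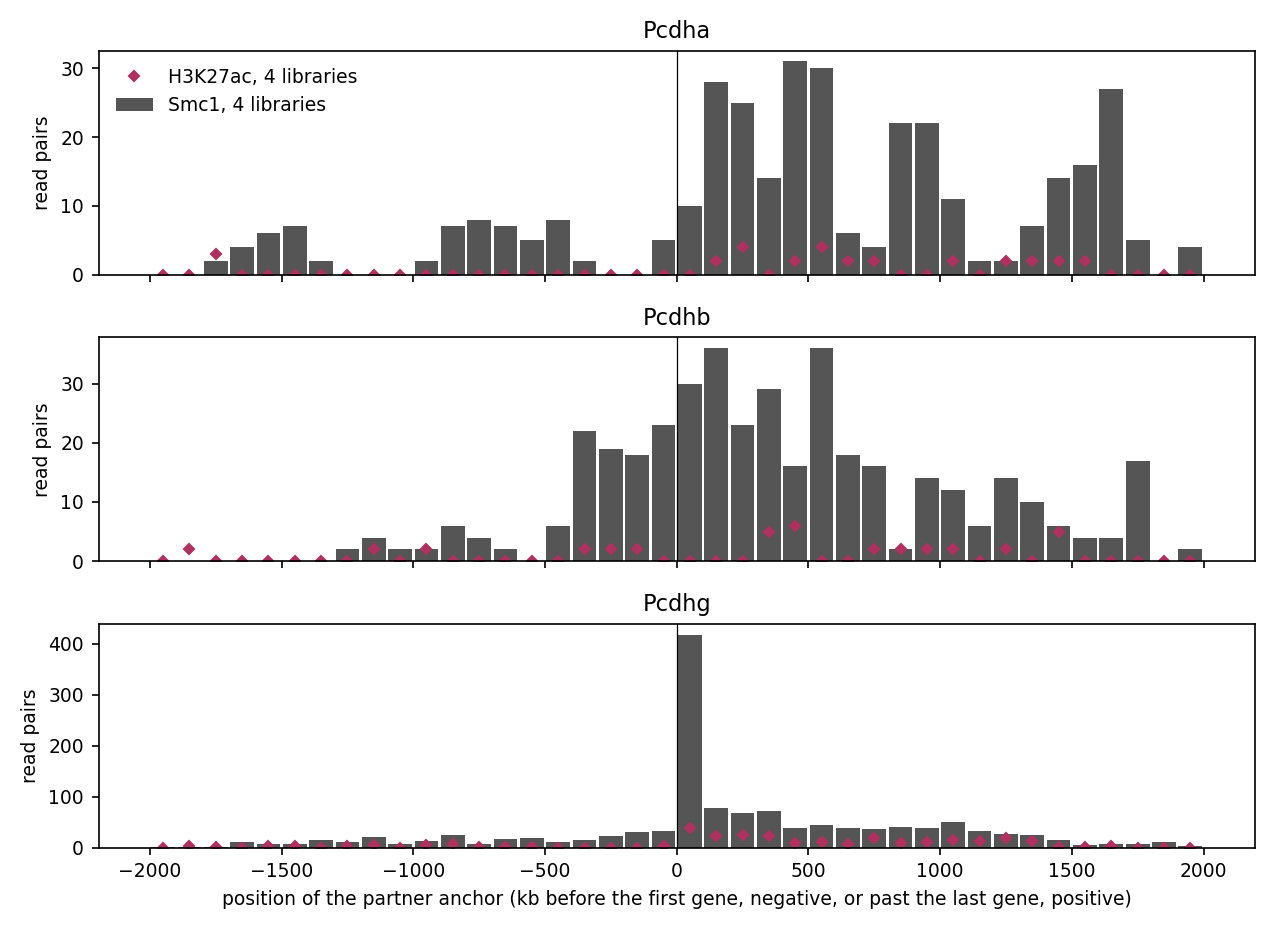
Read pairs (vertical axes) by position of the partner anchor's midpoint in steps of 100 kb, before the first gene (negative) or past the last gene (positive) of each subcluster, summed over 4 Smc1 libraries (bars) and 4 H3K27ac libraries (diamonds) of BL6 and NOD. For Pcdhg the first step past the last gene holds 418 Smc1 read pairs and the next 79, and Pcdha and Pcdhb show no such step. For Pcdhb the first positive step also takes in any partners in the gaps between its windows.

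The first 100 kb past Pcdhg differed widely between libraries. It took 201 and 123 Pcdhg read pairs in the BL6 Smc1 libraries (106 and 46.9 CPM), 86 and 25 in the NOD ones (51.7 and 16.8 CPM) and 33 in the F1 (43.1 CPM). The first BL6 library was the highest, and the second BL6 library lay below the first NOD library. Most of this zone is Diaph1, a gene for a formin that nucleates actin filaments (chr18:37843601-37935622), whose window overlaps the end of Pcdhg. Members shared 192 and 131 read pairs with Diaph1 in BL6, 91 and 34 in NOD and 33 in the F1 with Smc1, and 4 and 44 in BL6, none listed and 6 in NOD with H3K27ac. In the 4 Smc1 libraries, 421 of the 448 Diaph1 read pairs came from Pcdhg, 25 from Pcdhb and 2 from Pcdha.

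The anchor with the most member read pairs was inside Diaph1, with its midpoint 12.6 kb past the end of Pcdhg (chr18:37852075-37856895). It carried 110 and 53 read pairs with Pcdhg in the BL6 Smc1 libraries (57.9 and 20.2 CPM), 8 and 14 in the NOD ones (4.81 and 9.43 CPM) and 11 in the F1 on the BL6 genome (14.4 CPM). Both BL6 libraries were above both NOD libraries and the F1 lay between them. With H3K27ac it carried 4 and 24 in BL6 (9.07 and 19.9 CPM) and none listed with Pcdhg in NOD. With all partners together, its H3K27ac read pairs were 10 and 33 in BL6 (22.7 and 27.4 CPM). In NOD they were none listed in library 1 and 13 in library 2 (26.1 CPM). The anchor was chosen after its values were seen, and with 2 libraries against 2 no exact test can reach 0.05, so this is a description. In the BL6 Smc1 libraries it was listed as 1 segment of 4671 and 4640 bp with 1776 and 2110 reads, whereas in the NOD and F1 libraries it was split into 2 segments, the widest of 2202, 2481 and 1975 bp, with at most 590, 956 and 531 reads. In H3K27ac BL6 library 2 it was split too, with a widest segment of 2446 bp, and carried the 24 read pairs given above. With Smc1 the split moved with the strain difference, and its part in it was not tested. Read pairs of Pcdhg with all other partners were 163 and 195 CPM in BL6 and 185 and 112 in NOD, where the strains overlapped.

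Of the 8 member interactions with the most Smc1 read pairs that were listed in at least 2 Smc1 libraries, 7 used this anchor. They joined it to the starts of Pcdhga12 (12 and 9 read pairs in the BL6 Smc1 libraries and 7 in H3K27ac BL6 library 2, over 87.4 kb), Pcdhga10 (14 in BL6 library 1 and 4 in NOD library 1, over 106 kb), Pcdhgb6 (8 and 7 in BL6 and 7 in H3K27ac BL6 library 2, over 112 kb), Pcdhga11, Pcdhgc3, Pcdhga6 and Pcdhgb7. The Pcdhgc3 interaction was listed in NOD library 2 and in the F1, with 6 read pairs each, and in H3K27ac BL6 library 1, with 4. The remaining one joined the start of Pcdhgc5 over 15.3 kb to an anchor further along the shared end of Pcdhg (chr18:37831520-37835296), with 6 and 9 read pairs in the NOD Smc1 libraries. That anchor, the next in total, carried 33 and 11 member read pairs in the BL6 Smc1 libraries (17.4 and 4.20 CPM) against 36 and 32 in the NOD ones (21.6 CPM in each). Both NOD libraries lay above both BL6 libraries here, the reverse of the Diaph1 anchor, and the F1 on the BL6 genome was lowest at 2.61 CPM. With 2 libraries against 2 this too is only a description. In Pcdha, anchors between Pcdhac1 and Pcdhac2 were also listed in every BL6 and NOD Smc1 library: chr18:37097045-37099643 carried 6, 6, 10 and 8 read pairs and chr18:37102364-37105293 carried 2, 11, 4 and 3, in the order BL6 1, BL6 2, NOD 1, NOD 2, and neither was listed with H3K27ac. They were picked from the list after it was seen, and their overlap with known enhancers was not examined.

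**Figure D5:**
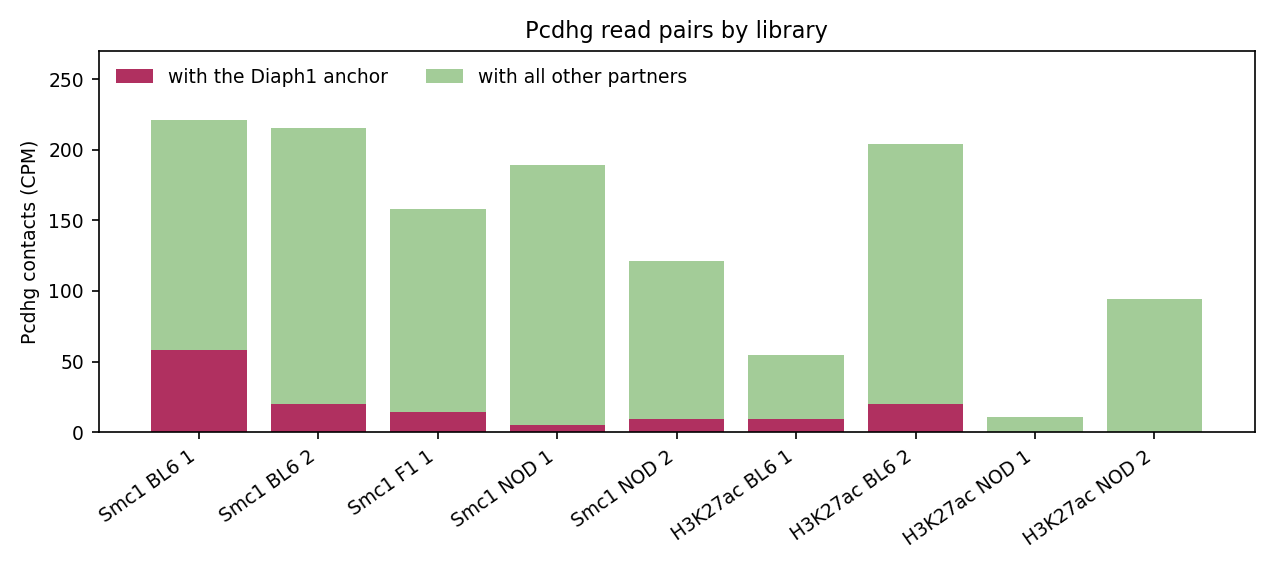
Pcdhg CPM (vertical axis) in each of 9 libraries, the F1 on the BL6 genome, split into those with the Diaph1 anchor (dark) and those with all other partners (light). The Diaph1 anchor takes 26.2% of the column in the first BL6 Smc1 library and 2.54 to 9.40% in the other 3 Smc1 libraries of BL6 and NOD.

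Other neighbours within 500 kb shared far fewer read pairs with the members over the 4 Smc1 libraries: 46 with Arap3, 38 with Hdac3, a histone deacetylase gene, 30 and 24 with the non-clustered protocadherin genes Pcdh1 and Pcdh12, 29 with Rnf14, 19 with Dele1 and 18 with Hars. Further out, Arhgap26, a gene for a GTPase-activating protein spanning 775 kb, shared 381, and 106 with H3K27ac. It is long and its total is not comparable per gene with the short neighbours. It was named after the totals were seen.

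Whether the strains differ was tested for every gene with edgeR's quasi-likelihood test, with Benjamini-Hochberg adjustment over the whole gene table. With Smc1, 0.188% of 18054 genes tested were called, and of the 48 members that passed the filter on low counts (14 Pcdha, 12 Pcdhb, 22 Pcdhg) none was; none had an unadjusted p under 0.05 either. DESeq2 called no member. The log2 difference, NOD against BL6, was −0.19 ± 0.38 (SE) for Pcdha, 0.18 ± 0.34 for Pcdhb and −0.46 ± 0.26 for Pcdhg, each with an edgeR adjusted p of 0.998. The median over tested members was −0.28, beside 0.01 over all genes. All 22 Pcdhg values were negative, but their windows share the end of the subcluster and count largely the same interactions. Scaled to chromosome 18 alone the Pcdha value was 0.07 and that of Pcdhg −0.20. The Pcdhg value was −0.25 without NOD library 2, −0.72 without NOD library 1 and −1.30 when interactions were limited to q-values up to 0.01.

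With H3K27ac, 0% of 13886 genes were called, and 106 had an unadjusted p under 0.05. Among members only the 22 Pcdhg genes passed the filter, with no call by edgeR or DESeq2, no unadjusted p under 0.05 and a median of −1.48 beside −0.01 over all genes. The NOD against BL6 difference was −0.76 ± 3.25 for Pcdha, −1.95 ± 2.70 for Pcdhb and −1.37 ± 1.11 for Pcdhg (SE; edgeR adjusted p = 1.00 each). The Pcdhg value rested on single libraries: it was −1.996 without BL6 library 1, −0.08 without BL6 library 2, −0.53 without NOD library 1 and −3.61 without NOD library 2. The Pcdhb value was −0.16 without BL6 library 2 and −1.05 without NOD library 1. Without both libraries numbered 1 a single library per strain is left and no test, and the log2 ratio of CPM, NOD over BL6, was −0.66 for Pcdha, −1.73 for Pcdhb and −1.11 for Pcdhg. On simulated counts of this comparison edgeR called none of 44 genes changed 16-fold and DESeq2 called 25 of them (56.8%). The strain difference was not shown to differ between antibodies: the interaction was −0.60 ± 1.74, −2.14 ± 1.40 and −0.88 ± 1.17 (SE) for Pcdha, Pcdhb and Pcdhg, with edgeR adjusted p = 1.00, and 0% of 18101 genes were called, 335 having an unadjusted p under 0.05, none of them a member. Without the libraries numbered 1 it was −0.56, −1.98 and −0.73 (edgeR adjusted p = 0.990, 0.738 and 0.855), the unadjusted p for Pcdhb being 0.0418.

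H3K27ac contacts lay below Smc1 contacts in the fitted value of all 3 subclusters, by sizes that edgeR did not call. Over the 8 libraries, with strain in the model, H3K27ac against Smc1 gave a log2 difference of −2.82 ± 0.82 (SE) for Pcdha, −2.87 ± 0.71 for Pcdhb and −1.43 ± 0.56 for Pcdhg (edgeR adjusted p = 0.113, 0.0740 and 0.249; unadjusted 0.0060, 0.0023 and 0.0284). Among all genes 2.17% of 17598 were called, 358 lower and 23 higher with H3K27ac. Of the 37 members that passed the filter (14 Pcdha, 1 Pcdhb, 22 Pcdhg) none was called. All 37 were negative and 25 had an unadjusted edgeR p under 0.05, with a median of −1.43 beside −0.06 over all genes. Windows of the Pcdha members share an end, as do those of Pcdhg, so member counts here and below largely repeat the same interactions. The call turned on the processing: DESeq2 called Pcdha (−2.88, DESeq2 adjusted p = 0.0082), Pcdhb (−2.96, 0.0015) and 13 members, where it called 8.11% of genes, and the edgeR fit on chromosome 18 alone called Pcdha (−2.30, adjusted p = 0.0137), Pcdhb (−2.28, 0.0089) and 12 members, beside 16.3% of the chromosome's genes. Without the 2 H3K27ac libraries numbered 1, edgeR called Pcdha (−1.94, adjusted p = 0.0249), Pcdhb (−2.01, 0.0304) and 9 members, beside 6.94% of genes. Pcdhg was not called in any of these 3 and was smaller in size in the latter pair, at −1.44, −0.88 and −0.66 (adjusted p = 0.131 with DESeq2, 0.0908 and 0.159 with edgeR). Per 100000 read pairs of chromosome 18, Pcdhg held 609 in H3K27ac BL6 library 2 beside 596 and 603 in the BL6 Smc1 libraries, and 302 in NOD library 2 beside 580 and 447 in NOD. The H3K27ac libraries numbered 1 held 408 in BL6 and 131 in NOD on this scale. The means were 362 ± 200 with H3K27ac and 556 ± 73.8 with Smc1 (SD, n = 4 each). Within BL6 alone the 3 differences were −2.54, −2.03 and −1.01 and within NOD alone −3.18, −4.18 and −1.90, with no call by edgeR (adjusted p = 0.350 to 0.855).

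Groups of genes around the members were read from the same fit. Of the 12 non-clustered protocadherins, relatives that lie elsewhere in the genome or singly, 9 were tested and 2 were called lower with H3K27ac: Pcdh9 (−9.52 ± 1.14, edgeR adjusted p = 0.0088), with 36 to 226 read pairs in the 4 Smc1 libraries and none listed with H3K27ac, and Pcdh15 (−4.30 ± 0.46, adjusted p = 0.0021), with 654 to 1425 and 6 to 57. Because Pcdh9 had no listed H3K27ac contact its fitted size depends on the fit and is not a fold. The median of the 9 was −3.37. Of the 8 neuron markers 3 were called lower, among them Snap25 (−5.47 ± 0.79, edgeR adjusted p = 0.0067) and Syt1 (−4.60 ± 0.52, edgeR adjusted p = 0.0027), both genes of synaptic vesicle release. The median of the 8 was −1.52, with 5 negative and 3 positive. The median of the 12 double-positive thymocyte markers was 0.98. Without the libraries numbered 1 edgeR gave −4.29 for Pcdh15, −4.75 for Snap25 and −4.11 for Syt1, each called, and called 6 of the 9 non-clustered protocadherins lower. Of 19 listed regulators of protocadherin promoters and loops (among them Ctcf, Rad21, Nipbl, Wapl, Smchd1, Dnmt3b and Setdb1), 17 were tested in each comparison but that of strain with H3K27ac, where 16 were and Rad21 was not, and none was called. The 30 genes flanking the members within 500 kb, 29 of them tested, gave no call either, with a median of −0.36 beside −0.06 over all genes. Without the H3K27ac libraries numbered 1 all 30 were tested with no call, and their median was −0.11 beside −0.04. With Smc1 no gene of these lists was called between strains.

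The F1 library was deposited as mapped to each parental genome. Over the 3 subclusters its BL6 mapping held 174 read pairs and its NOD mapping 175, a log2 ratio of NOD over BL6 CPM of −0.04. Of the 64 member interactions of the BL6 mapping, 58 (90.6%) were also in the NOD mapping, where they were 89.2% of 65, and all 58 had the same number of read pairs. Pcdhb had 24 and 30 read pairs on the 2 genomes, Pcdha 38 and 40, and Pcdhg 121 and 116. From the BL6 to the NOD genome Pcdhb went from 31.4 to 37.9 CPM, Pcdha from 49.7 to 50.5 and Pcdhg from 158 to 146. The pooled ratio thus covers shifts in opposite directions, in a library with no replicate.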

How the data were processed

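The authors deposited 10 tables of interactions within chromosomes. Per the file headers each row gives a count of read pairs and read counts per anchor, not normalized, and a p-value and q-value for the interaction. Tools listed, without roles, in the submitters' processing notes are HiC-Pro, Juicer (1.7.6) and MACS, and the build is GRCm38. Read pairs were summed per gene body with 5 kb on either side, over interactions of at least 10 kb, for protein-coding genes of GRCm38.p6 and the members; 3 read-through genes spanning the locus were not members. CPM is relative to all used read pairs of a library. Fits used edgeR 4.0.16 in R 4.3.3 (quasi-likelihood test, TMM, default expression filter, threshold 0.05). The 3 subcluster sums were fitted beside the genes and kept whatever the filter said. Pairs not listed entered sums and fits as 0. DESeq2 1.42.0 was an alternative. The fits were tested on simulated counts with 200 changed genes: of 4-fold changes edgeR called 44% for strain with Smc1 (17947 genes) and 36% for antibody (17599 genes). Changed genes were drawn only from those with higher mean counts, under a common dispersion, so these shares do not cover members with low counts. Sums and the exact test within libraries, added after the data were seen, used Python 3.11.15 and scipy 1.17.1. Members, lists and tests were chosen with earlier results of these data known. Named were the subclusters, the first and last gene and the C-type members, the 4 highest starts of each, members called, the 8 interactions with the most Smc1 read pairs and up to 8 neighbours; others are marked as chosen after their values were seen. No member sequence is shown. Some genes of the marker lists are not reported here.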

Additional observations from a re-analysis of the deposited data

Results flagged for a closer look

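Interactions under 10 kb were left out of all sums above, and some were listed at the members: summed over the 4 Smc1 libraries of BL6 and NOD they held 112 read pairs in Pcdha (0 to 71 per library), 24 in Pcdhb and 48 in Pcdhg, and 14 in Pcdhg over the 4 H3K27ac libraries, all in 1 of them. They are given because they lie outside the distances analysed and exceed 3 counts.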

How the results depend on the processing

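For NOD against BL6 with Smc1 no alternative called a subcluster or a member. The Pcdha value turned positive with a minimum of 3 read pairs per interaction (0.44), at q-values up to 0.01 (0.16), on chromosome 18 alone (0.067) and without BL6 library 2 (0.061), and that of Pcdhb turned negative under the first and second of these (−0.14 and −0.035). Leaving out each library in turn gave −0.41 to 0.061 for Pcdha, 0.075 to 0.27 for Pcdhb and −0.72 to −0.25 for Pcdhg. With H3K27ac the Pcdha strain value turned positive at a q-value up to 0.01 (0.26) and without NOD library 1 (0.18, the range over left-out libraries being −1.64 to 0.18, with −2.66 to −0.16 for Pcdhb and −3.61 to −0.085 for Pcdhg). No value could be had where a group had none listed: with H3K27ac for Pcdha and Pcdhb at 3 read pairs, Pcdhb at a q-value up to 0.01, Pcdha without either library numbered 2 and Pcdhb without NOD library 2. For H3K27ac against Smc1 the direction held throughout. DESeq2 gave −2.88 for Pcdha, −2.96 for Pcdhb and 13 members called, chromosome 18 alone −2.30, −2.28 and 12, and the 6 libraries without the H3K27ac ones numbered 1, an alternative added after seeing the data, −1.94, −2.01 and 9. Leaving out 1 library gave −4.05 to −2.38 for Pcdhb, called at −4.05 without H3K27ac BL6 library 2. The replicate block called all 3 subclusters, Pcdhg included, at −5.54, −3.52 and −1.82 for Pcdha, Pcdhb and Pcdhg (edgeR adjusted p = 0.00063, 0.0010 and 0.00075), and 32 members, all lower, where it called 15.2% of genes. Same-numbered libraries deviated together (correlation over 17182 genes 0.23 for Smc1 and 0.49 for H3K27ac), but with 2 pairs each and no shared source in the labels they share only a number. The block moved no strain call. Within BL6 or NOD alone, also added later, no member was called. Members called are not independent genes, since windows within Pcdha and within Pcdhg overlap. The causes were not tested. The F1 ratio stayed between −0.066 and −0.017. H3K27ac depth on chromosome 18 limits every H3K27ac result.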
